A study of Mus musculus with 6 samples.

Results

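The 45 genes described here are MYC, its dimerisation partner and its antagonists (Myc, Max, Mxi1 and Mxd1) together with 41 ribosome biogenesis factors, which build ribosomes in the nucleolus. They were taken by gene symbol from the annotation of the array, each read at 1 probe set listed with that gene alone, that with the highest mean over the 6 arrays. Of the 45, 44 had such a probe set, among 22180 genes in all. The exception was Fbl, the methyltransferase of box C/D particles, whose probe set is listed for Fbl and Tulp4 together and was not read for either.

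The cells were RAW 264.7, a mouse macrophage-like line. In 3 samples (Mist-targeted) they had received a GapmeR against Mist, a long noncoding RNA of macrophages, and in 3 samples (Control) a non-targeting GapmeR; a GapmeR is an antisense oligonucleotide with locked nucleic acid ends, through which RNase H cuts the RNA it pairs with. Both groups were transfected with 50 nM by lipofection, and RNA was taken at 48 h. The labels name 1 GapmeR against Mist and give no untransfected cells, and 0 probe sets are annotated as Mist, so the level of the target was not analysed here.

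MYC binds DNA as a dimer with MAX, at the E-box CACGTG among other sequences, and is known for activating genes of ribosome production, nucleotide synthesis and growth. MXD1 and MXI1 also pair with MAX, bind the same E-box and repress. Ribosome production starts with transcription of ribosomal RNA by RNA polymerase I. The transcript is then modified by box C/D and box H/ACA small nucleolar ribonucleoproteins (snoRNPs), cut in the small subunit processome and assembled with ribosomal proteins into the large and small subunits.

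Values were log2 expression with array medians between 4.47 and 4.50, and differences are Mist-targeted minus Control. Of 10 macrophage markers 9 lay above the median of every array. The mean of the list was 9.35 to 9.45 on the Mist-targeted arrays and 9.13 to 9.15 on the Control arrays. Of its genes 2 were called higher, Fcgr1 (difference 1.01) and Aif1 (1.52). The other macrophage markers differed by -0.27 (Ptprc) to 0.26 (Itgam), on both sides of 0. The part of the shift of the list mean in the results on other genes was not tested. Of 5 fibroblast markers the collagen gene Col1a1 lay above every array median, but close to it (means 4.61 in Mist-targeted and 4.63 in Control). Of the measured markers of T cells, B cells, neutrophils, epithelial and erythroid cells, 0 lay above every array median (1 of 3 erythroid and 3 of 4 B cell markers were measured). Control replicate 3 stood nearer to the Mist-targeted arrays than the other Control arrays did for Myc, Mxd1, Mxi1 and most factors, and values without it are given for Myc, Mxd1, Mxi1, the factors as a set and the factors whose difference it moved by over 1.5 times. In bulk RNA of this kind, fewer cells that express a gene and less RNA per cell cannot be told apart.

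Both MAX-binding repressors had lower values on all 3 Mist-targeted arrays, and Myc itself was lower on average, but its groups overlapped. Over all 41345 probe sets limma called 105 at an adjusted p under 0.05, or 0.254%, and 0 of the 44 members (before adjustment, 4 were higher and 3 lower with p under 0.05). An ordinary linear model without moderation called 0 of all 41345 probe sets, and so 0 members. Before adjustment, it had 8 of the 44 members higher and 3 lower at p under 0.05. In that model 12.6% of the 7034 genes at or above the level of the dimmest factor were higher at p under 0.05. Before adjustment, 5.24% of all genes were higher and 5.79% lower in the main comparison, and 9.87% and 11.2% of the 7034. With trend and robust moderation, limma called 0.694% of probe sets and again 0 members. At p under 0.05 before adjustment, 15 of the 44 were higher and 3 lower. In that setting 12.8% of the 7034 genes were higher at p under 0.05. The plot of the MYC network genes on the 6 arrays shows all their values.

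Myc had log2 values of 5.00, 4.91 and 4.79 on the Mist-targeted arrays, against 5.56, 5.70 and 4.88 on the Control arrays. Control replicate 3 thus lay within the range of the Mist-targeted arrays, while the other 2 Control arrays lay above it. The difference was -0.48 ± 0.21 (SE, n = 3 per group; limma, adjusted p = 0.52), with a 95% interval of -0.95 to 0.0033. An exact two-sided permutation test gave p = 0.30, where 3 against 3 allows 0.10 at the lowest. Without Control replicate 3 the difference was -0.73 (adjusted p = 0.15), and without Control replicate 2 it was -0.32 (adjusted p = 0.82). Its values stood close to the array medians, and no measure of detection was used here.

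Max, the shared partner of these proteins, had values of 8.68, 8.79 and 9.05 on the Mist-targeted arrays and 8.57, 8.57 and 8.64 on the Control arrays. The groups did not overlap, with Mist-targeted replicate 3 the highest. The difference was 0.25 ± 0.11 (SE; limma, adjusted p = 0.55), and it was 0.14 without Mist-targeted replicate 3.

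Mxd1, the repressor also known as MAD1, had values of 6.04, 6.38 and 6.31 on the Mist-targeted arrays, against 7.10, 7.19 and 6.79 on the Control arrays. Every Mist-targeted value lay below every Control value, with a gap of 0.42 between the groups. The difference was -0.78 ± 0.14 (SE, n = 3 per group), 1.72-fold lower, with an adjusted p of 0.084 in limma and a 95% interval of -1.11 to -0.46.

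Mxi1, the MAX interactor that represses like MXD1, had values of 7.04, 7.69 and 7.46 on the Mist-targeted arrays, against 8.35, 8.29 and 7.98 on the Control arrays. These groups did not overlap either, and Mist-targeted replicate 1 was the lowest of the 6, as for Mxd1. The difference was -0.81 ± 0.18 (SE, n = 3 per group; limma, adjusted p = 0.16), 1.76-fold lower, and the other probe set of the gene differed by -0.74 ± 0.16. Over all 22180 genes the groups did not overlap in 9.97% with Mist-targeted lower and in 9.99% with Mist-targeted higher. Among the 7034 genes at or above the level of the dimmest factor these shares were 17.9% and 18.2%.

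The calls of these 2 repressors depended on which probe sets were tested. Among probe sets listed with 1 gene, limma called both lower (adjusted p = 0.0046 for Mxd1 and 0.014 for Mxi1). That setting called 713 of 23521 probe sets, or 3.03%, and 2 of the 44 members is a share near that background. With the probe sets of each gene averaged, the same 2 members were called, among 3.15% of genes. Over all alternatives the adjusted p of Mxd1 lay between 0.0041 and 0.28 and that of Mxi1 between 0.012 and 0.41, and their differences stayed between -0.90 and -0.68 and between -0.96 and -0.63.

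**Figure D1:**
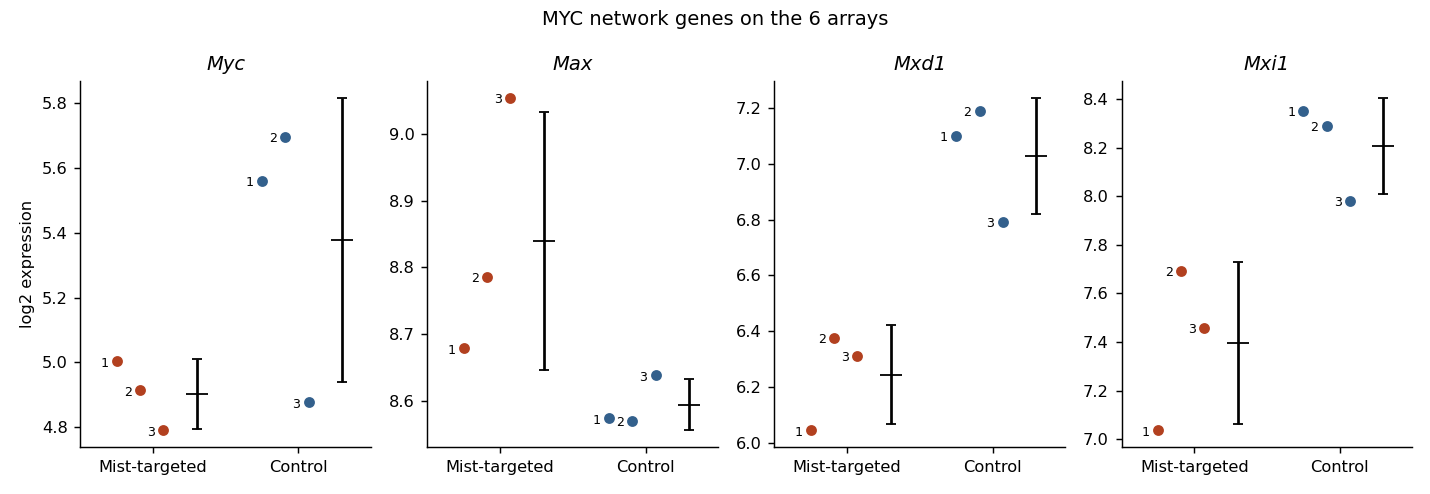
Log2 expression of Myc, Max, Mxd1 and Mxi1 on each array (points, numbered by replicate), with the mean and SD of each group of 3 (bars); each panel has its own axis. Mxd1 and Mxi1 do not overlap between the groups, while Control replicate 3 of Myc, at 4.88, lies among the Mist-targeted arrays.

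Because MYC and the repressors bind the E-box CACGTG, the promoters of the members were read for it. RefSeq (GRCm38.p6) gave promoters for 39 of the 45 members, from 250 bases before the transcript start to 50 after it; Myc, Fbl, Bop1, Rrp12, Npm1 and Rrs1 had no entry. The motif is its own reverse complement, so 1 search covers both strands. It stood in the window of 10 of 39 members, or 25.6%, and of 8.91% of 17492 protein-coding genes. Of the 10, 3 had it wholly before the start, at 7.69% of members against 7.61% of protein-coding genes. By these starts, the members with the motif mostly carried it at or just after the start. The start matched the first base of the gene in RefSeq for 24 of 49 member promoters, so the split into before and after depends on the starts used. The 3 are Nop2, an RNA methyltransferase of the large subunit, Utp18 of the small subunit processome, and Rrn3, an initiation factor of polymerase I. Their bases before the start are printed 5′ to 3′ with the motif in capitals.
Nop2: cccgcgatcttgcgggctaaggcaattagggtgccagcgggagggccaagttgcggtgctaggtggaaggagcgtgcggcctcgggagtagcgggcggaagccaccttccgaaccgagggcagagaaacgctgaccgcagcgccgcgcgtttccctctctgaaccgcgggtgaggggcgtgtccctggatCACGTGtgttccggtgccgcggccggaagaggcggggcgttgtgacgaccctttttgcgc (chr6:125131633-125131882, plus strand)
Utp18: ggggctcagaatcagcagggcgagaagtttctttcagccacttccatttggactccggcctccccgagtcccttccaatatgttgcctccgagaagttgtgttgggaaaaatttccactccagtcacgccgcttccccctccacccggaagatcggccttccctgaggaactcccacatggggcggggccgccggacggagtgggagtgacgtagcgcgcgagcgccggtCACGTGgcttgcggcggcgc (chr11:93885767-93886016, minus strand)
Rrn3: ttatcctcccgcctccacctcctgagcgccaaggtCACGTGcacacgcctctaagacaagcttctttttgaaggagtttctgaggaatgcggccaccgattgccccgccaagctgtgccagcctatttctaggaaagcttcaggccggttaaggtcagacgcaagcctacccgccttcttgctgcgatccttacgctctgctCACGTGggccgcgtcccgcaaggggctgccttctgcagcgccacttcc (chr16:13780449-13780698, plus strand)

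In the other 7 members the motif overlapped or followed the start, and up to 12 bases on either side are shown for each so that the flanks can be compared. Shorter stretches end where the promoter window ends.
Max: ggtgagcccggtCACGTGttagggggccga (chr12:76962234-76962263, minus strand)
Utp4: tgcgcaagcgcgCACGTGgggccggggcgg (chr8:106893643-106893672, plus strand)
Wdr43: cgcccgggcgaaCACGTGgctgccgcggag (chr17:71616220-71616249, plus strand)
Pes1: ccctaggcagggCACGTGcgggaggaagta (chr11:3963965-3963994, plus strand)
Grwd1: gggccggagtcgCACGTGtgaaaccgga (chr7:45830740-45830767, minus strand)
Utp20: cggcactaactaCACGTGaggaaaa (chr10:88826765-88826789, minus strand)
Mybbp1a: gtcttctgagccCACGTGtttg (chr11:72441355-72441376, plus strand)

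Of the 10, 9 are ribosome biogenesis factors and the other is Max. All 9 factors with the motif had a difference above 0 (median 0.19, from 0.039 to 0.36), as had 24 of 27 factors whose windows lack it (median 0.13, from -0.36 to 0.29). The ranges of the 2 sets overlap widely, and no test was made between them. A motif in such a window is a description of the letters and does not show binding.

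The ribosome biogenesis factors had small differences, nearly all above 0. Of the 40 measured, 37 had a difference above 0, or 92.5%, against 52.2% of all 22180 genes and 53.3% of the 7034 genes at or above the level of the dimmest factor. The median was 0.13 on the log2 scale, against 0.0069 over all genes and 0.013 over those 7034. None of the 40 was called by limma, with adjusted p values from 0.20 to 0.99. At an unadjusted p under 0.05, 4 factors were higher and 1 was lower; the 4 make 10%, against 9.87% of the 7034 genes (5.24% of all genes). That count depended on the setting. It was 14 of 40, or 35%, with trend and robust moderation, where 12.8% of the 7034 genes were higher, and 10, or 25%, against 12% among probe sets listed with 1 gene. It was 9, or 22.5%, against 12.1% with the probe sets of each gene averaged and 8, or 20%, against 12.6% without moderation. With the replicate number as a block it was 6, or 15%, against 9.72%. Quantile normalization gave 4, or 10%, against 10.037%, and leaving out the dimmest 40% of probe sets gave 4, or 10%, against 9.84%. Median centring gave 3, or 7.5%, against 9.13%, and array weights gave 3, or 7.5%, against 10.58%. Without Control replicate 3 it was 7, or 17.5%, against 7.22%, and without Control replicate 2 it was 1, or 2.5%, against 7.21%. Without Control replicate 1 it was 3, or 7.5%, against 7.24%. Leaving out Mist-targeted replicate 1, 2 or 3 gave 5, or 12.5%, each time, against 9.38%, 8.12% and 6.84%. In 14 factors, or 35.0%, every Mist-targeted array lay above every Control array, against 18.2% of the 7034 genes (9.99% of all genes), and in 1 every array lay below, against 17.9%. All 40 were read on the same 6 arrays, so they are not separate observations of the comparison.

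**Figure D2:**
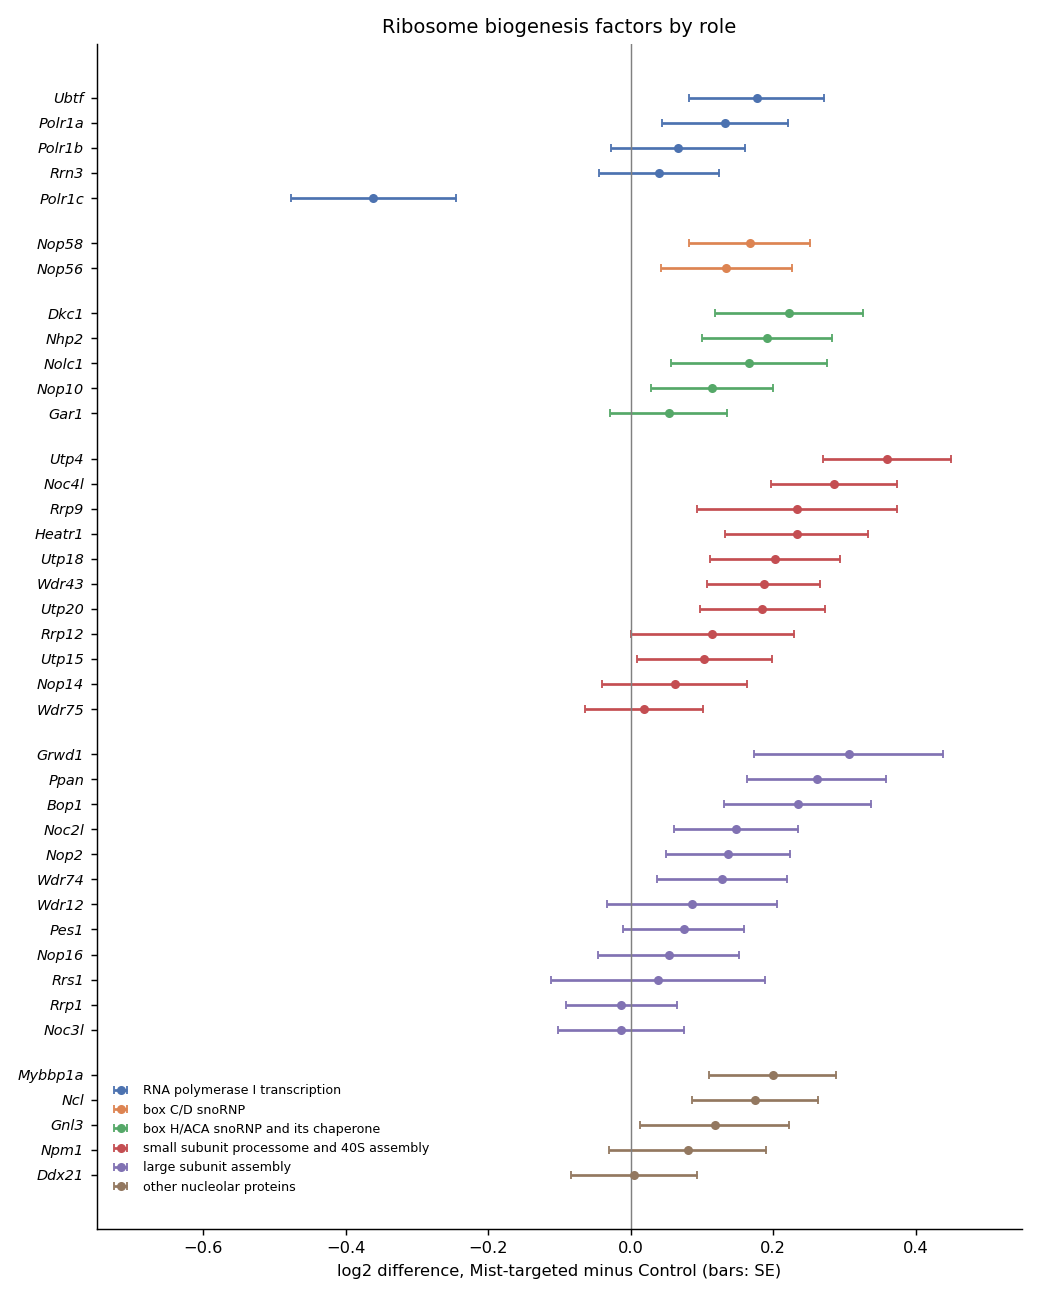
Log2 difference of each of the 40 measured factors, Mist-targeted minus Control, grouped by role, with bars of 1 SE. Of the 40 points 37 lie right of 0, and Polr1c at -0.36 lies farthest to the left.

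**Figure D3:**
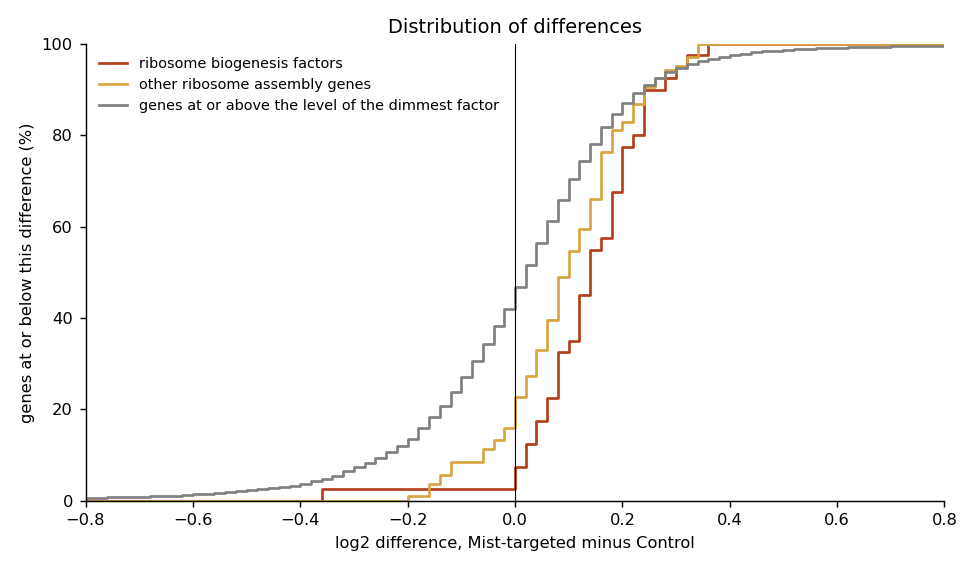
Percent of genes at or below each log2 difference, Mist-targeted minus Control, for the 40 factors, 106 other ribosome assembly genes and the 7034 genes at or above the level of the dimmest factor. The medians are 0.13 for the factors and 0.086 for the other assembly genes, against 0.013 for the 7034 genes.

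Among genes of RNA polymerase I transcription, 4 of 5 had a difference above 0 and Polr1c had one below 0. Polr1c, a subunit shared by RNA polymerases I and III, had values of 8.18, 8.50 and 8.23 on the Mist-targeted arrays, against 8.55, 8.66 and 8.79 on the Control arrays. The groups did not overlap, though the highest Mist-targeted and the lowest Control value lay close together. Its difference was -0.36 ± 0.12 (SE; limma, adjusted p = 0.34). The catalytic subunits Polr1a (0.13 ± 0.089) and Polr1b (0.067 ± 0.094), the promoter-binding factor Ubtf (0.18 ± 0.095) and Rrn3 (0.039 ± 0.084) had adjusted p values between 0.63 and 0.94.

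All 7 measured snoRNP genes had a difference above 0. Nop56 and Nop58, core proteins of box C/D particles that guide methylation of ribosomal RNA, differed by 0.13 ± 0.092 and 0.17 ± 0.084. The 2 other probe sets of Nop56 differed by -0.050 and 0.054. Of the box H/ACA proteins, which guide pseudouridylation, the pseudouridine synthase Dkc1 differed by 0.22 ± 0.10, Nhp2 by 0.19 ± 0.091, Nop10 by 0.11 ± 0.085 and Gar1 by 0.053 ± 0.082. Nolc1, a chaperone of these particles, differed by 0.17 ± 0.11, and the adjusted p values of all 7 genes lay between 0.56 and 0.91.

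The small subunit processome and assembly of the small subunit were represented by 11 factors. All had a difference above 0, with a median of 0.19, and in 6 of them the groups did not overlap (Utp4, Noc4l, Heatr1, Utp18, Utp20 and Wdr43), against 9.99% of all genes and 18.2% of the 7034 with Mist-targeted higher. Utp4, a component that joins the ribosomal RNA transcript early, had values of 10.56, 10.65 and 10.54 on the Mist-targeted arrays, against 10.18, 10.15 and 10.34 on the Control arrays. Its Mist-targeted values lay close together and all above the Control values. The difference was 0.36 ± 0.090 (SE, n = 3 per group; limma, adjusted p = 0.20), 1.28-fold, and over the alternatives its adjusted p lay between 0.051 and 0.51.

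Noc4l, which acts with Nop14 in yeast in small subunit export, had values of 8.39, 8.29 and 8.36 on the Mist-targeted arrays and 8.11, 7.95 and 8.12 on the Control arrays. These groups were also separate, and the difference was 0.29 ± 0.088 (adjusted p = 0.32). Nop14 itself differed by 0.062 ± 0.10. Wdr43 had values of 10.97, 10.93 and 10.93 on the Mist-targeted arrays and 10.71, 10.74 and 10.82 on the Control arrays, a difference of 0.19 ± 0.079 (adjusted p = 0.51). Heatr1, a large scaffold protein of the processome, had values of 9.50, 9.41 and 9.39 on the Mist-targeted arrays and 9.04, 9.23 and 9.32 on the Control arrays, a difference of 0.23 ± 0.10 (adjusted p = 0.52). In both, Control replicate 3 was the Control array nearest to the Mist-targeted ones.

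The other processome genes differed by 0.23 ± 0.14 (Rrp9, a protein of the snoRNP that guides early cleavage), 0.20 ± 0.091 (Utp18), 0.18 ± 0.088 (Utp20), 0.10 ± 0.095 (Utp15) and 0.019 ± 0.083 (Wdr75). Rrp12, which takes part in export of subunits, differed by 0.11 ± 0.11.

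Of 12 factors of the large subunit, 10 had a difference above 0, with a median of 0.11. Ppan, a factor of early large subunit assembly, had values of 7.68, 7.65 and 7.88 on the Mist-targeted arrays, against 7.39, 7.49 and 7.55 on the Control arrays. All Mist-targeted values were above all Control values, by 0.26 ± 0.098 on average (SE; limma, adjusted p = 0.43), and the other probe set of Ppan differed by 0.14 ± 0.10. Grwd1, a nucleolar chaperone of histones and ribosomal proteins, had values of 7.21, 7.09 and 7.36 on the Mist-targeted arrays and 6.75, 6.82 and 7.16 on the Control arrays. Its groups overlapped through Control replicate 3, and its difference was 0.31 ± 0.13 (adjusted p = 0.52).

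Bop1, Pes1 and Wdr12 form the PeBoW complex, which is needed for processing of large subunit RNA. Bop1 had values of 8.18, 8.30 and 8.36 on the Mist-targeted arrays and 7.89, 8.10 and 8.16 on the Control arrays, a difference of 0.23 ± 0.10 (adjusted p = 0.53) between groups that were just separate. Pes1 differed by 0.074 ± 0.085 and Wdr12 by 0.086 ± 0.12, both with overlapping groups; whether these differ from Bop1 was not tested. Wdr12 was decided by 1 array, since without Mist-targeted replicate 1 its difference was -0.023.

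The remaining large subunit genes differed by 0.15 ± 0.087 (Noc2l), 0.14 ± 0.087 (Nop2), 0.13 ± 0.091 (Wdr74), 0.053 ± 0.10 (Nop16), 0.038 ± 0.15 (Rrs1), -0.013 ± 0.078 (Rrp1) and -0.014 ± 0.088 (Noc3l). Noc2l was the one gene of these 7 whose groups did not overlap. The last 3 changed sign when single arrays were left out.

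Of 5 abundant nucleolar proteins, nucleolin (Ncl, 0.17 ± 0.088), which binds ribosomal RNA precursors, and the transcriptional regulator Mybbp1a (0.20 ± 0.089) had groups that did not overlap. Nucleostemin (Gnl3) differed by 0.12 ± 0.10, and nucleophosmin (Npm1) by 0.080 ± 0.11, with its other probe set at 0.055 ± 0.12; Npm1 has processed pseudogenes in mouse that its probes may share. The RNA helicase Ddx21, which couples polymerase I transcription to processing, had a difference of 0.0045 ± 0.089 with a 95% interval of -0.20 to 0.21, and its sign turned under quantile normalization, under median centring and with its probe sets averaged.

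Myc and the factors were also set side by side array by array. As deviations from the Control mean, the median of the 40 factors was 0.14, 0.17 and 0.10 on Mist-targeted replicates 1 to 3, against -0.058, -0.020 and 0.065 on Control replicates 1 to 3. Myc deviated by -0.37, -0.46 and -0.59 on the Mist-targeted arrays and by 0.18, 0.32 and -0.50 on the Control arrays. Among the Control arrays, replicate 3 thus had the lowest Myc and the highest median of the factors. The median of the 5 abundant nucleolar proteins was instead highest on Control replicate 1 (0.11, against 0.040 on replicate 3).

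Control replicate 3 was the highest of the 3 Control arrays for 26 of 40 factors and the lowest for 4. Of all genes, 32.7% were highest and 32.4% lowest there. Mxd1 and Mxi1 were also lowest among the Control arrays on replicate 3, at -0.24 and -0.23, against -0.98, -0.65 and -0.72 for Mxd1 and -1.17, -0.52 and -0.75 for Mxi1 on the Mist-targeted arrays. Among the Mist-targeted arrays, the factor median was highest on replicate 2 and lowest on replicate 3, while Myc was highest on replicate 1 and lowest on replicate 3. With 3 arrays per group no correlation between Myc and the factors was computed.

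Without Control replicate 3, Mxd1 differed by -0.90, Mxi1 by -0.93 and the median of the factors was 0.17, and over all arrays left out in turn it lay between 0.12 and 0.17, above 0 in each case. Leaving out that array moved 10 factors by over 1.5 times. Rrp9 then differed by 0.37, Nop56 by 0.20, Nop16 by 0.11, Rrs1 by 0.091, Wdr75 by 0.047 and Ddx21 by 0.025, all farther above 0 than with it. Noc3l (-0.051) and Rrp1 (-0.026) lay farther below 0, and Npm1 (0.021) and Rrn3 (0.011) lay nearer to 0. Over all probe sets, Control replicate 3 correlated at 0.990 and 0.991 with Control replicates 1 and 2. With the Mist-targeted arrays it correlated at 0.986 to 0.989. What sets Control replicate 3 apart in the genes named here was not tested.

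**Figure D4:**
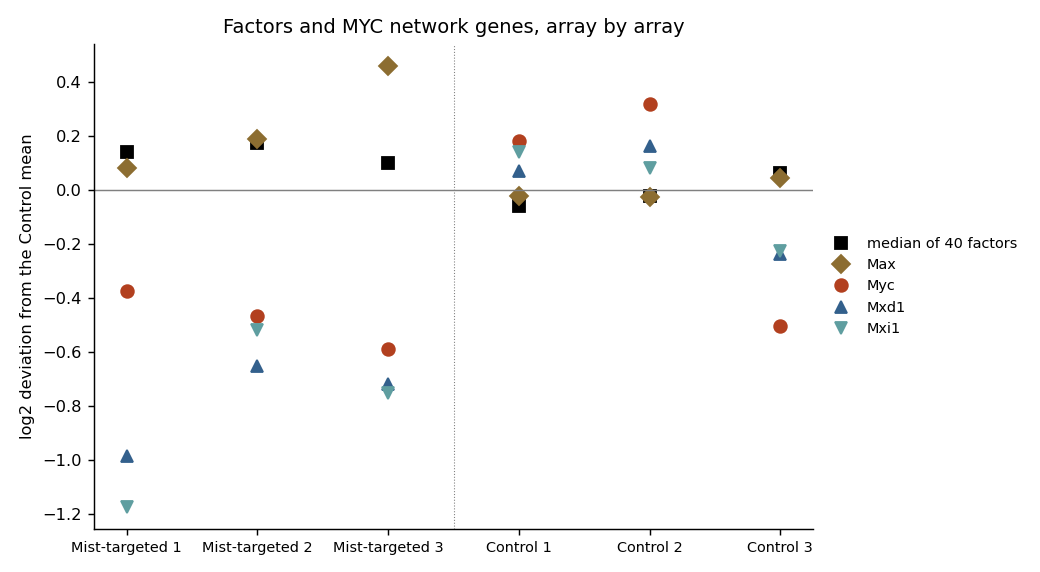
Log2 deviation of Myc, Max, Mxd1, Mxi1 and of the median of 40 factors from their own Control mean, on each array. The factor median is above 0 on the 3 Mist-targeted arrays and on Control replicate 3 (0.065), and Myc, Mxd1 and Mxi1 are below 0 on the same 4 arrays.

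The other genes of ribosome production were read from lists outside the 45. Of 115 further genes of ribosome production (RNA polymerases I and III, snoRNP assembly, small and large subunit factors), 106 were measured and 82, or 77.4%, had a difference above 0, against 52.2% of all genes and 53.3% of the 7034, with a median of 0.086. None was called by limma. At an unadjusted p under 0.05, 15 were higher, or 14.2%, against 5.24% of all genes and 9.87% of the 7034, and 0 were lower. The share above 0 was 85.4% of 41 large subunit factors (median 0.12), 82.4% of 34 small subunit factors (median 0.056) and 72.7% of 11 snoRNP assembly genes (median 0.085); of 20 polymerase I and III genes 11 were above 0 (median 0.061).

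The small subunit genes with the smallest p were Nol6 (0.33 ± 0.083, SE; limma, adjusted p = 0.20), Bysl (0.28 ± 0.090) and the methyltransferase Emg1 (0.25 ± 0.10). For the large subunit they were the methyltransferase Ftsj3 (0.24 ± 0.078), Nol9 (0.22 ± 0.080) and Rpf2 (0.26 ± 0.098). For the polymerases they were Taf1a (0.31 ± 0.090) and Taf1c (0.32 ± 0.11), both parts of the selectivity factor of polymerase I, and Polr3d (0.27 ± 0.10). For snoRNP assembly they were Snu13 (0.27 ± 0.093), Znhit3 (0.34 ± 0.12) and Znhit6 (0.23 ± 0.096). None of the 12 had an adjusted p below 0.20, and the highest was 0.51.

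Of 10 other genes of the MYC network, 5 had a difference above 0, against 52.2% of all genes, and none was called by limma. Before adjustment, 1 was higher with p under 0.05 and 0 were lower, against 5.24% and 5.79% of all genes. Mxd4, which encodes another MAX-binding repressor of the MXD family, had values of 5.76, 5.67 and 6.02 on the Mist-targeted arrays, against 5.55, 5.38 and 5.37 on the Control arrays. The groups did not overlap, and the difference was 0.38 ± 0.12 (SE; limma, adjusted p = 0.30), of the opposite sign to those of Mxd1 and Mxi1. Mlxip and Mycl differed by 0.22 ± 0.095 and 0.16 ± 0.095. Mycn, a paralog of Myc named here after its values were seen, had values of 7.94, 8.12 and 8.28 on the Mist-targeted arrays and 8.09, 8.11 and 8.19 on the Control arrays. Those ranges overlap, far above the array medians, and the difference of -0.015 ± 0.11 had a 95% interval of -0.26 to 0.23.

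Genes known to be induced by MYC outside ribosome assembly were above 0 in 16 of 24, or 66.7%, with a median of 0.067. The share above 0 was 52.2% of all genes and 53.3% of the 7034. Limma called none of the 24. Before adjustment, 3 of them, or 12.5%, were higher with p under 0.05, against 5.24% of all genes and 9.87% of the 7034, and 0 were lower. The folate enzyme gene Shmt1 differed by 0.46 ± 0.089 (SE; limma, adjusted p = 0.12), and the purine synthesis genes Ppat and Gart by 0.29 ± 0.081 and 0.27 ± 0.086. The difference was below 0 in 8 of the 24, among them Ldha (-0.32 ± 0.16), Shmt2 (-0.22 ± 0.11) and Paics (-0.078 ± 0.094).

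Of 5 measured genes known to be repressed by MYC, 2 had a difference above 0 and 3 had one below 0. In 2 of the 5 the groups were separate, both lower in the Mist-targeted samples. That held for 9.97% of all genes and 17.9% of the 7034. Limma called none. Before adjustment, 2 were lower with p under 0.05 and 0 higher. The share lower was 5.79% of all genes and 11.2% of the 7034. The stress-regulated gene Ndrg1 had values of 8.08, 9.13 and 9.10 on the Mist-targeted arrays, against 10.42, 10.40 and 10.21 on the Control arrays, a difference of -1.58 ± 0.27 (SE; adjusted p = 0.080). The cell cycle inhibitor Cdkn1b had values of 6.52, 6.82 and 6.69 on the Mist-targeted arrays, against 7.36, 7.33 and 7.17 on the Control arrays, a difference of -0.61 ± 0.11 (adjusted p = 0.084). The other cell cycle inhibitors Cdkn2b, Cdkn1a and Cdkn1c differed by -0.094 ± 0.094, 0.0048 ± 0.082 and 0.031 ± 0.092. Among probe sets listed with 1 gene, limma called Shmt1 higher and Ndrg1 and Cdkn1b lower, and 0 of the 106 further ribosome genes, in a setting that called 3.03% of all its probe sets. Ndrg1 was also called lower in the fit without Mist-targeted replicate 1 (adjusted p = 0.041).

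**Figure D5:**
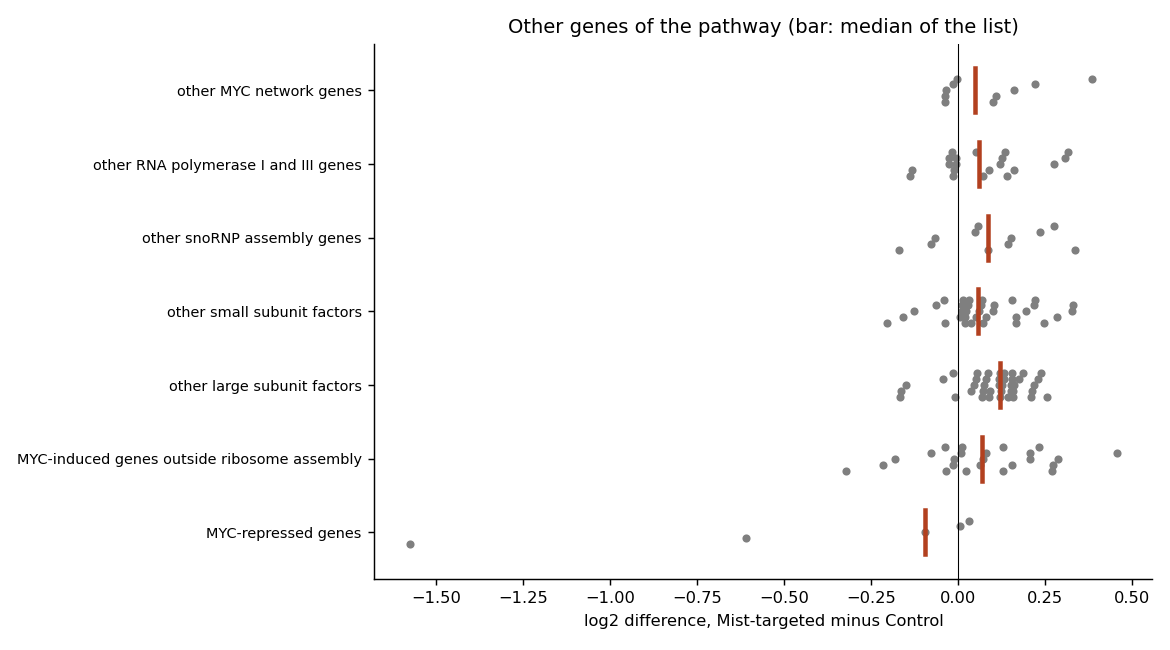
Log2 differences, Mist-targeted minus Control, of 145 measured pathway genes outside the 45, by list (points), with the median of each list (bar). Medians of the ribosome assembly lists lie between 0.056 and 0.12, and Ndrg1 at -1.58 and Cdkn1b at -0.61 stand apart among the genes repressed by MYC.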

How the data were processed

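RNA of 3 Mist-targeted and 3 Control samples was hybridised to 1-colour Affymetrix arrays. The authors deposited log2 expression values for 41345 probe sets, made with RMA and Partek per the submitters' processing notes, with no versions stated. RMA sets the arrays to 1 distribution, which reduces shifts shared by most genes. The platform annotation listed 23521 probe sets with 1 gene, 1814 with several and none for 16010. Each gene was read at the probe set listed with it alone that had the highest mean over the 6 arrays.

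Groups were compared in limma 3.58.1 (R 4.3.3), by lmFit and eBayes on all probe sets and both groups, with Benjamini-Hochberg adjustment over all probe sets and a threshold of 0.05. Tables were made with Python 3.11.15, pandas 2.3.3 and numpy 2.4.6. The fit was tested on simulated data. The members and the pathway lists were chosen with earlier results of these data known. Genes named with array values were the MYC network and the 8 factors with the smallest p, and in each pathway list the 3 with the smallest p were named. Array values of Mxd4, Mycn, Ndrg1 and Cdkn1b were added after their values were seen. So were the differences of Cdkn1a, Cdkn1c, Shmt2, Ldha and Paics. The alternatives were another normalization or centring, filters, probe set rules, variance models, array weights, a replicate block and leaving out each array.

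The labels do not say that replicates were separate cultures, so the spread behind each p value is that of these samples and may be technical. No batch was given, and the number of arrays limits the precision.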

Additional observations from a re-analysis of the deposited data

How the results depend on the processing

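Of 660 member values recomputed under 15 alternatives, 642 kept their sign and their side of the threshold, and 38 members had no change of sign. The 105 probe sets called became 287 with trend and robust moderation, 161 without the dimmest 40% of probe sets, 713 among probe sets listed with 1 gene, 698 with the probe sets of each gene averaged, 0 in the ordinary linear model, and 2 to 40 when 1 array was left out. The members called became 2 (Mxd1 and Mxi1, both lower) among probe sets listed with 1 gene and 2 (the same genes) with gene means, and stayed at 0 when any 1 array was left out. These 2 settings tested 23521 probe sets and 22180 genes. The setting without the dimmest 40% tested 24807 probe sets and called 0 members, with a lowest adjusted p of 0.071 in limma. Why the settings differ was not tested. The median of the factors was 0.12 to 0.17 with 1 array left out, and Myc was -0.73 to -0.32. Ddx21 (0.0045) turned to -0.017 with quantile normalization, -0.0024 with median centring and -0.0082 with gene means, and ran from -0.052 to 0.043 with 1 array left out. The same omissions gave -0.064 to 0.017 for Noc3l, -0.037 to 0.0089 for Rrp1, -0.11 to 0.12 for Rrs1, -0.023 to 0.18 for Wdr12 and -0.022 to 0.047 for Wdr75; the cause was not tested.

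Replicate numbers are shared between the groups. Deviations of same-numbered arrays correlated at 0.20, 0.096 and 0.033, and those of arrays with different numbers at -0.15 to 0.060. Every array but Control replicate 3 correlated best with its own number. The labels do not say whether same-numbered arrays were handled together, and these values cannot settle it. With the replicate number as a block, 0 probe sets were called, and Myc differed by -0.48 (limma, adjusted p = 0.38).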
